A study of Rattus norvegicus with 6 samples.

Results

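The expression of 7 cell cycle genes was followed in RNA sequencing libraries from rat bone, 3 from untreated controls and 3 from exercised animals. The genes are Mki67 (ENSRNOG00000028137), Top2a (ENSRNOG00000053047), Ccnb1 (ENSRNOG00000058539), Cdk1 (ENSRNOG00000000632), Ccna2 (ENSRNOG00000015423), Pcna (ENSRNOG00000021264) and Plk1 (ENSRNOG00000018815), taken from a list of Ensembl identifiers that name genes of known function in cell division. All 7 identifiers had a row among the 32883 genes of the count table, and all 7 were among the 14495 genes that passed the filter on low counts. All animals are labelled wild type, the tissue is labelled bone and the cell type osteocyte, the cell embedded in the mineralized matrix, and the series title speaks of moderate-intensity treadmill running in adult rats. The labels for the controls give no treatment and those for the other group give exercise. Strain, sex, bone site, the length and speed of running and any removal of marrow are not stated by the labels. The files pair no identifier with a symbol, so the pairing of these 7 comes from the list, and neither the osteocyte label nor the presence of marrow could be checked against markers. They are therefore called cell cycle genes here, without naming the cells that carried them.

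The cell cycle is driven by kinases that act only when bound to a cyclin, a protein made and destroyed in each round of division. Cyclin A2 (Ccna2) works from DNA replication onward, and cyclin B1 (Ccnb1) with its kinase Cdk1 starts mitosis, with help from the kinase Plk1. Osteocytes are regarded as non-dividing, whereas the haematopoietic precursors of the marrow divide rapidly, and in bulk bone such transcripts are commonly read as a sign of dividing cells. In bulk tissue a smaller share of dividing cells and less of these transcripts per cell cannot be told apart.

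The 7 genes varied together between animals, over a range far wider than that of most genes. Their level was lowest in control replicate 3 and highest in exercised replicate 3 in all 7 genes, and all 7 placed the 6 libraries in one and the same order. That order was shared by 5.09% of the other genes tested. The highest library exceeded the lowest by 188-fold in Top2a, with a median of 94.6-fold over the 7 genes. Pcna, the exception, spanned 5.37-fold. Exercised and control libraries overlapped in every one of the 7 genes, and none passed the test between the groups. Over all genes tested, 7.37% did not overlap and 0% passed, so neither result sets the 7 genes apart.

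The proximal promoters of genes that moved together are shown for Top2a, Ccnb1 and Cdk1, which had wide ranges, and for Pcna. The range of Pcna was narrower than theirs, though larger than in 76.4% of the genes tested. The sequences are those of RefSeq on the rat assembly GRCr8, 250 bases before and 50 from the annotated start, 5′ to 3′ on the strand of the gene, and were matched by symbol for 6 of the 7 genes. Capitals mark 3 motifs searched on both strands, which may overlap. These are CHR (the cell cycle genes homology region, TTTGAA or TTTAAA, known to be bound by the MuvB complexes), the CCAAT box bound by NF-Y, and E2F (TTTCCCGC, TTTCGCGC, TTTGCCGC or TTTGGCGC). The Top2a window lies at chr10:84473044-84473343 (minus strand), the Ccnb1 window at chr2:33655176-33655475 (minus strand), the Cdk1 window at chr20:19265043-19265342 (plus strand) and the Pcna window at chr3:139955771-139956070 (minus strand).
Top2a: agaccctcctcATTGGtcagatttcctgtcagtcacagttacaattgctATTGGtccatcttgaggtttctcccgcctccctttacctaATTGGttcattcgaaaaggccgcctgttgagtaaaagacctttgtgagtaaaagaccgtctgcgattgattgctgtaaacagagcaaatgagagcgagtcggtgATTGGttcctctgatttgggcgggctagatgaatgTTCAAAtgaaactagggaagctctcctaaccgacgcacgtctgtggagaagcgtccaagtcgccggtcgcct
Ccnb1: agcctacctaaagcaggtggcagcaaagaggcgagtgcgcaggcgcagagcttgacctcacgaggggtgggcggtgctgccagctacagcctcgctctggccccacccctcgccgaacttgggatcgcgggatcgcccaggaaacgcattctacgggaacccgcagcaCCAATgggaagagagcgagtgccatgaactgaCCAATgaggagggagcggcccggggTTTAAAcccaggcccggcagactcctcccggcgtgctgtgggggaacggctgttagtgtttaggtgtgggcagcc
Cdk1: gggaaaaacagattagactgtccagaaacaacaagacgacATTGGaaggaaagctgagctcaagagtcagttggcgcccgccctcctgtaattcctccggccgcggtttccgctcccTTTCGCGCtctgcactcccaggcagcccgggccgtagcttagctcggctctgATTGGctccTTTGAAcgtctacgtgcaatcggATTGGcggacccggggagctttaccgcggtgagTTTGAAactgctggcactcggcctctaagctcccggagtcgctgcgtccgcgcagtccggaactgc
Pcna: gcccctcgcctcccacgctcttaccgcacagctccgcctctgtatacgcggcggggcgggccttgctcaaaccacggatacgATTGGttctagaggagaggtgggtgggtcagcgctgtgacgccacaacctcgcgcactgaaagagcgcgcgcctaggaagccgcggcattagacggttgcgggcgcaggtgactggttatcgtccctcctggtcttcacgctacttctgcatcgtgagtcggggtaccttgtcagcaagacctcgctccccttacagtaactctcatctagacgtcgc

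The CHR letters were found in 5 of the 6 promoters, those of Mki67, Top2a, Ccnb1, Cdk1 and Plk1, and were not in the Pcna window. Of all 33469 promoter windows in the same table, 28.3% hold them. In Top2a the match began 22 bases before the annotated start, in Ccnb1 25 bases before it, and in Cdk1 at 72 and 16 bases before it. A CCAAT box was in all 6 windows, against 37.5% of all windows, and at least 2 were in 4 of the 6, against 11.2%. Mki67 and Top2a had 4 each, Cdk1 had 3, Ccnb1 had 2, and Pcna and Plk1 had 1 each. The E2F letters were found only in Cdk1 among the 6, against 2.14% of all windows. These are matches of letters in a window, and binding was not measured. Any relation of the motifs to the ranges of the genes was not tested.

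Among the genes of DNA replication, Pcna encodes the sliding clamp that holds DNA polymerase on its template. Its level in control replicates 1 to 3 was 38.0, 77.5 and 29.7 CPM (read counts corrected for library size, here with TMM scaling and not for gene length, so that levels are compared between libraries only), and in exercised replicates 1 to 3 it was 57.1, 43.8 and 159 CPM. Only exercised replicate 3 exceeded control replicate 2, and the other exercised libraries lay between control replicates 1 and 2. Top2a encodes the topoisomerase that untangles replicated chromosomes. It was at 25.02, 163 and 2.02 CPM in the controls and 71.7, 56.0 and 378 CPM in the exercised libraries. Ccna2 was at 4.36, 36.6 and 0.973 CPM in the controls and 19.2, 11.6 and 92.0 CPM in the exercised libraries. In both genes control replicate 2 was higher than exercised replicates 1 and 2, and control replicate 3 was lowest, at 29 counts for Top2a and 14 for Ccna2.

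Among the genes of mitotic entry, Cdk1 was at 4.23, 23.1 and 0.834 CPM in control replicates 1 to 3 and at 13.5, 9.26 and 63.7 CPM in exercised replicates 1 to 3. Its cyclin, Ccnb1, was at 5.93, 30.3 and 0.695 CPM in the controls and 14.4, 8.35 and 63.1 CPM in the exercised libraries. Plk1, which promotes mitotic entry and spindle assembly, was at 5.11, 26.4 and 0.556 CPM in the controls and 17.3, 12.3 and 61.2 CPM in the exercised libraries. The groups overlapped in each of the 3 genes, because control replicate 2 was above 2 of the exercised libraries. The levels in control replicate 3 rest on few reads: 12 counts for Cdk1, 10 for Ccnb1 and 8 for Plk1, the last with an exact 95% Poisson interval of 3.45 to 15.8 counts, which covers counting error only.

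Mki67 encodes Ki-67, the nuclear antigen by which pathologists score dividing cells. It was at 53.4, 360 and 4.24 CPM in control replicates 1 to 3, and at 139, 105 and 702 CPM in exercised replicates 1 to 3. The counts behind these values ran from 61 in control replicate 3 to 12359 in exercised replicate 3, so that counting error is small beside the 166-fold range. Within the control group alone, replicate 2 exceeded replicate 3 by 84.9-fold in Mki67, 80.6-fold in Top2a and 27.7-fold in Cdk1. Within the exercised group, replicate 3 exceeded replicate 2 by 6.66-fold in Mki67 and 4.98-fold in Plk1. The difference between 2 animals of 1 group was thus larger than the difference between the group means in each of the 7 genes.

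**Figure D1:**
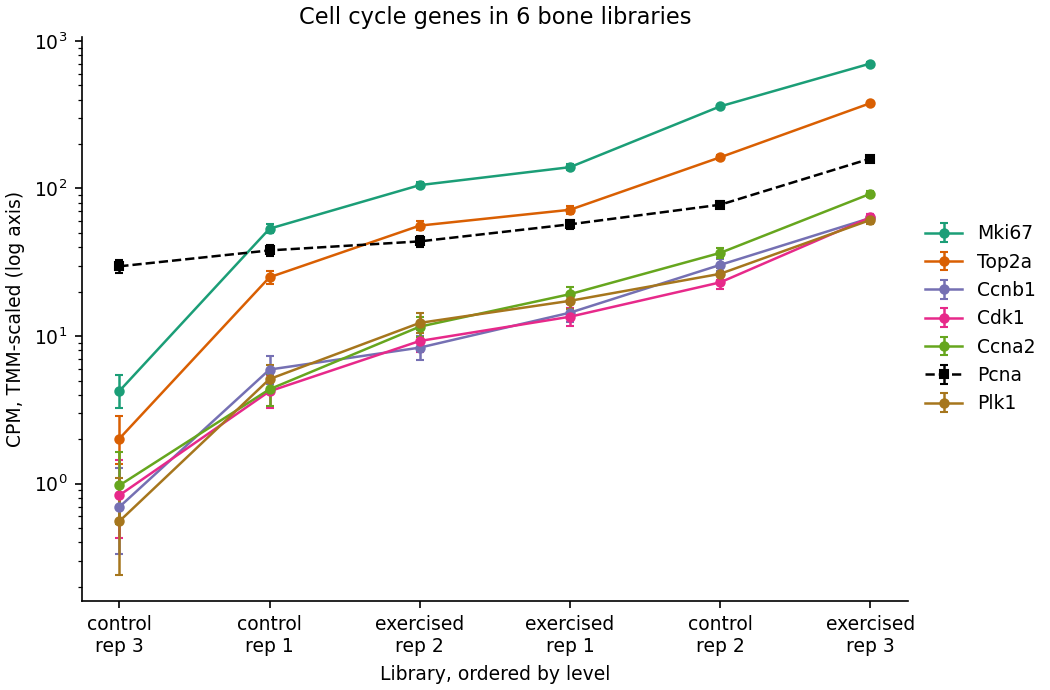
TMM-scaled CPM (log axis) of the 7 genes in each of the 6 libraries, which are ordered by level; bars are exact 95% Poisson intervals of the counts. All 7 lines rise in the same order, from control replicate 3 to exercised replicate 3, and that of Pcna (dashed) is the flattest, from 29.7 to 159 CPM.

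Control replicate 3 was lowest, followed by control replicate 1, exercised replicate 2, exercised replicate 1, control replicate 2 and exercised replicate 3. This order held in 7 of 7 genes. It was also the order of 738 of the 14488 other genes tested (5.09%), and 22.7% of the other genes were highest in exercised replicate 3 and lowest in control replicate 3. The range of log2 CPM in Mki67 was larger than in 99.3% of the genes tested, that in Cdk1 larger than in 97.6%, and that in Pcna larger than in 76.4%. The median range was 6.39 on the log2 scale over the 7 genes and 1.39 over all genes tested. Without control replicate 3 the median highest-to-lowest ratio of the 7 genes was 13.0, and without that library and exercised replicate 3 together it was 5.46, against 94.6 with all 6 libraries.

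Correlations of log2 CPM between the genes were computed over the 6 libraries for all 21 pairs. Spearman's rho was 1 in every pair (exact two-sided permutation p = 0.00278, the smallest that 6 libraries allow for a rank correlation, and 0.00278 after Benjamini-Hochberg adjustment over the 21 pairs). Pearson's r ran from 0.982 to 0.999 in the 15 pairs without Pcna, each with an exact permutation p of 0.00139 (adjusted p = 0.00194). It ran from 0.877 to 0.933 in the pairs with Pcna, with exact permutation p from 0.00694 to 0.0292 (adjusted p from 0.00911 to 0.0292). Without control replicate 3 and exercised replicate 3, the libraries farthest from the median, Pearson's r of the 21 pairs ran from 0.932 to 1.00. High correlations were common in these libraries: 15.6% of the other genes correlated with Mki67 at least as closely as its least correlated member did (r = 0.877), and 17.1% did so with Pcna (r = 0.877). An r of at least 0.95 was reached by 7.65% of the other genes with Mki67 and by 5.72% with Pcna. By Pearson's r over the 6 libraries, these 5.72% followed Pcna more closely than any of the 6 members did. By rank every member had a rho of 1 with Pcna, which no gene can exceed.

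The 6 genes other than Pcna kept nearly constant proportions to one another while their level changed. The log2 ratio of each to the mean of the other 5 varied over a range of 0.53 in Plk1 to 1.09 in Mki67 between libraries, whereas the log2 CPM of these genes ranged over 6.05 to 7.46. The slope of log2 CPM on the mean of the other 5 was between 0.88 (Cdk1) and 1.14 (Top2a). Pairs of these genes shifted against each other by at most 3.06-fold, between Mki67 and Cdk1, with control replicate 3, at 61 and 12 counts, as the lowest ratio.

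Pcna changed with the other genes but by much less. Its slope of log2 CPM on the mean of the other 6 was 0.34. Its log2 ratio to that mean was 1.98, 0.41 and 4.48 in control replicates 1 to 3 and 0.95, 1.12 and 0.24 in exercised replicates 1 to 3. The ratio was highest where the other genes were lowest and lowest where they were highest. Between the highest 2 libraries Pcna changed about as much as the others: exercised replicate 3 exceeded control replicate 2 by 2.05-fold in Pcna and by 1.95-fold (Mki67) to 2.76-fold (Cdk1) in the others. At the next step down it changed least of the 7, with control replicate 2 above exercised replicate 1 by 1.36-fold in Pcna and by 1.52-fold (Plk1) to 2.58-fold (Mki67) in the others. The gap was widest at the lower end, where control replicate 1 exceeded control replicate 3 by 1.28-fold in Pcna, and by 4.48-fold (Ccna2) to 12.6-fold (Mki67) in the others. RefSeq lists 3 Pcna pseudogenes, and 1 each for Mki67 and Cdk1, on assembly GRCr8. How reads shared with such copies were counted is not stated by the labels, and their part in these levels was not tested.

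The group means of the log2 ratio of Pcna to the other 6 genes were 2.29 ± 2.06 in the controls and 0.77 ± 0.47 in the exercised libraries (SD, n = 3 each). The difference of -1.52 did not pass (two-sided exact permutation p = 0.3, where 3 against 3 libraries can reach 0.1 at best). It ran from -2.46 to -0.42 when 1 library was left out.

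**Figure D2:**
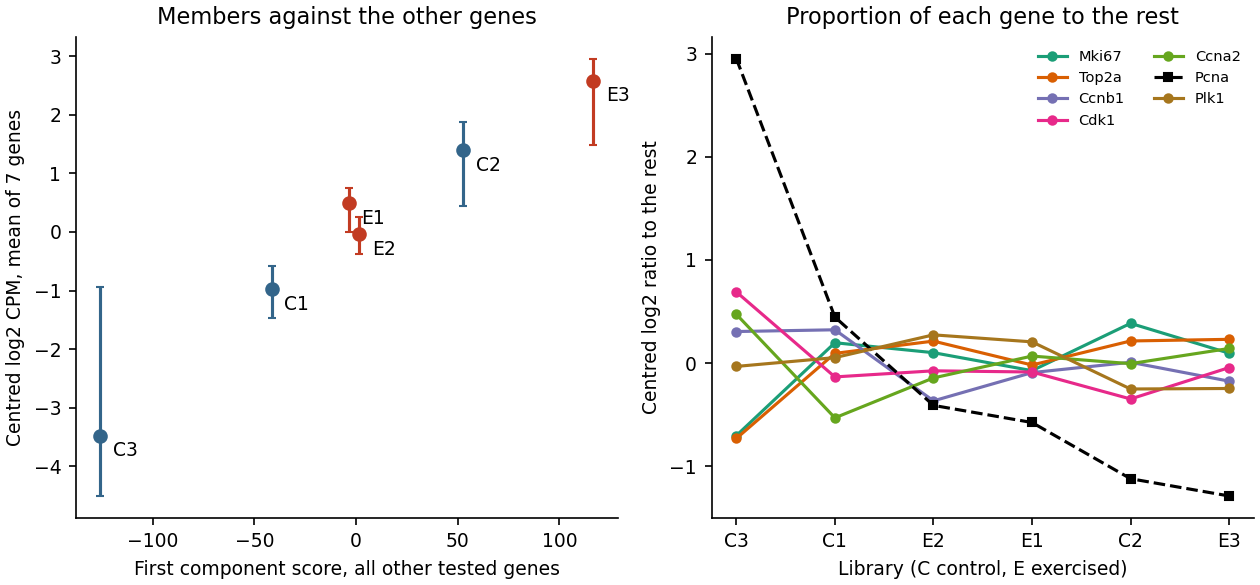
Left, mean centred log2 CPM of the 7 genes in each library (bars: lowest and highest gene) against the score of that library on the first principal component of all other tested genes; right, log2 ratio of each gene to the mean of the other genes without Pcna, centred on its mean over libraries. The mean level rises with the score from control replicate 3 (-126) to exercised replicate 3 (117), except between exercised replicates 1 and 2. Exercised replicate 1 has the lower score (-3.57 against 1.52) but the higher level. Pcna (dashed) falls relative to the rest from left to right while the other lines stay within about 1 log2 unit.

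The comparison of exercised with control bone addresses whether treadmill running altered gene expression in bone. All 7 genes had higher mean CPM in the exercised libraries. Mki67 was at 139 ± 193 CPM in the controls and 315 ± 335 CPM in the exercised libraries, Cdk1 at 9.387 ± 11.996 and 28.8 ± 30.3 CPM, and Pcna at 48.4 ± 25.6 and 86.7 ± 63.2 CPM (SD, n = 3 each). The SD exceeded the mean in both groups for Mki67 and Cdk1. By edgeR's quasi-likelihood test the log2 fold difference was 1.18 (SE 1.44) in Mki67, 1.42 (SE 1.43) in Top2a, 1.21 (SE 1.29) in Ccnb1, 1.62 (SE 1.23) in Cdk1, 1.55 (SE 1.34) in Ccna2, 0.84 (SE 0.60) in Pcna and 1.499 (SE 1.24) in Plk1. The p adjusted over all genes tested by the Benjamini-Hochberg method was 0.889 in 6 of these genes and 0.893 in Mki67. None of the 7 passed the threshold of 0.05, where the background over all genes was 0%, and none had an unadjusted p under 0.05, where the background was 1.70% of genes. DESeq2 also called 0 of the 7, against 0.00484% of all genes. The log2 fold difference was above 0 in 7 of 7 genes, against 50.8% of all genes, with a median of 1.42 over the 7 genes and 0.01 over all genes. The size depended on the scale: limma voom, which averages log values, gave a median of 2.26 over the 7 genes (adjusted p = 0.833 in each), and the difference of mean log2 CPM in Mki67 was 2.31, against 1.18 by edgeR, which compares means of counts. Since the 7 genes shared 1 order of libraries, their common sign counts as 1 observation rather than 7.

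The exercised libraries did not all lie above or below the controls in any of the 7 genes. The share over all genes was 7.37%. Since the 7 genes shared the same order of libraries, this is not a separate observation on each gene. The share of the squared deviations of log2 CPM that lay between the groups was 21.1% in Pcna to 33.3% in Plk1, with a median of 27.7% over the 7 genes and 16.2% over all genes tested. The estimate rested on single animals. Without exercised replicate 3 the edgeR log2 fold difference was -0.18 in Mki67, -0.12 in Ccnb1 and 0.02 in Top2a, and the highest of the 7 was 0.47, in Plk1. Without control replicate 2 it was 3.45 in Mki67, 3.64 in Top2a, 3.94 in Ccna2 and 1.36 in Pcna, with an adjusted p of 0.537 in each. Without control replicate 3 it was 0.61 in Mki67 and 1.07 in Cdk1. With control replicate 3 and exercised replicate 3 both left out, all 7 values were below 0, from -0.75 in Mki67 to -0.09 in Plk1.

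**Figure D3:**
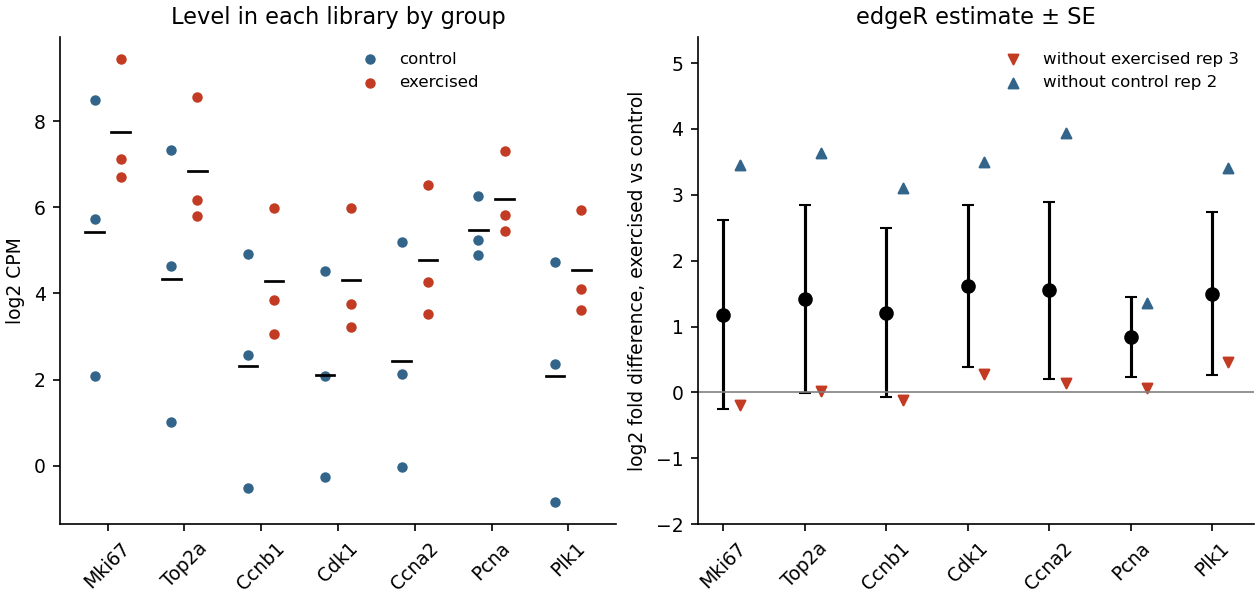
Left, log2 CPM of the 7 genes in each library (points) with group means (lines); right, edgeR log2 fold difference of exercised against control with its SE (black) and the same estimate without exercised replicate 3 or without control replicate 2 (triangles). The groups overlap in every gene, and leaving out 1 library moves the estimate of Mki67 from 1.18 to -0.18 or to 3.45.

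Ratios between 2 genes of the same library do not depend on scaling, and were compared for all 21 pairs. Top2a counts per Mki67 count were 0.469, 0.452 and 0.475 in control replicates 1 to 3, and 0.514, 0.532 and 0.539 in exercised replicates 1 to 3. This ratio thus changed by 1.19-fold between its lowest and highest library while Mki67 itself varied by 166-fold and Top2a by 188-fold, and every exercised library lay above every control. The log2 ratio of Mki67 to Top2a was lower in the exercised libraries by a difference of -0.18, with p = 0.1 by a two-sided exact permutation test, the smallest that 3 against 3 allows, and 0.7 after Benjamini-Hochberg adjustment over the 21 pairs. The exact 95% interval of control replicate 3 was 0.295 to 0.751 and spanned all other values. That of control replicate 1 was 0.413 to 0.531 and covered the ratio of exercised replicate 1. Of the 21 ratios, 2 did not overlap between the groups, the second being Ccnb1 per Plk1, at 1.16, 1.15 and 1.25 in the controls and 0.831, 0.68 and 1.03 in the exercised libraries (exact permutation p = 0.1, adjusted 0.7). Control replicate 3 contributed 10 and 8 counts to it. Among the 1109 other genes with an r of at least 0.95 with Mki67, 5.14% had a ratio to Mki67 that did not overlap between the groups. That share is for ratios to Mki67 and does not cover Ccnb1 per Plk1. It is therefore no background for the count of 2 among the 21 ratios. These 2 ratios were singled out after their values were seen.

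**Figure D4:**
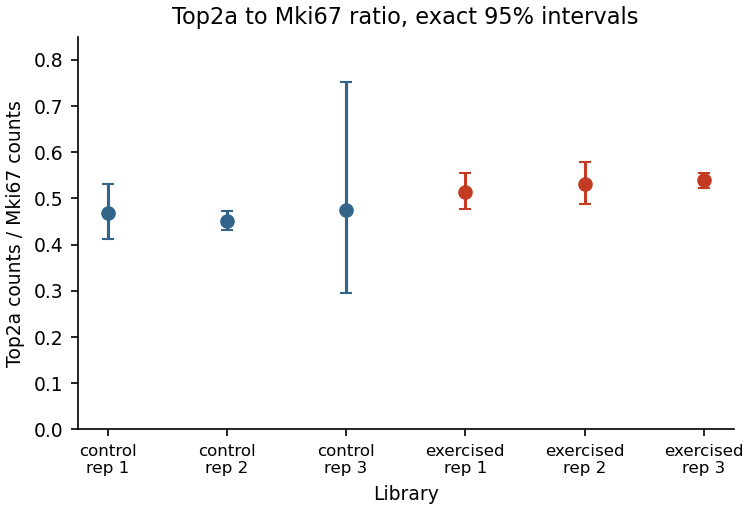
Top2a counts divided by Mki67 counts in each library (linear axis from 0), with exact 95% binomial intervals of counting error. The 3 controls lie between 0.452 and 0.475 and the 3 exercised libraries between 0.514 and 0.539, with a wide interval in control replicate 3.

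The level of the cell cycle genes followed the main axis of difference between the libraries. The first principal component of the other 14488 genes held 65.2% of their variance, with scores of -41.4, 52.6 and -126 in control replicates 1 to 3 and -3.57, 1.52 and 117 in exercised replicates 1 to 3. The mean centred log2 CPM of the 7 genes correlated with this score at r = 0.987 over 6 libraries (exact permutation p = 0.00278, 0.0111 adjusted over 4 library measures) and at rho = 0.943 (exact permutation p = 0.0167, adjusted 0.0667). The correlation was 0.958 without control replicate 3 and exercised replicate 3. Only the 7 genes were left out of the component, and 1305 of the other genes correlated with their mean profile at 0.95 or more. The score is thus not a measure separate from that profile, and these p-values do not show a relation with one. Of all genes tested, 16.8% correlated with the score at 0.9 or more and 8.65% at -0.9 or less. The lowest r of the 7 genes with the score was 0.946, in Pcna, and 11.7% of the genes tested reached at least that. Because the score tracked the 7 genes so closely, a fit with it leaves little of their variation to compare between groups. With the score as a covariate the edgeR log2 fold differences were 0.02 in Mki67, 0.20 in Top2a, -0.05 in Ccnb1, 0.33 in Cdk1, 0.32 in Ccna2, -0.03 in Pcna and 0.49 in Plk1, and the adjusted p was at least 0.946 in each.

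Total counts per library ranged from 14056743 to 18126584 and correlated with the mean level of the 7 genes at r = -0.791 and rho = -0.6 (exact permutation p = 0.075 and 0.242, adjusted 0.075 and 0.242). This relation rested on control replicates 2 and 3, without which r was -0.06. The 10 most abundant genes together took 16.6% to 27.5% of the counts, a share that correlated at r = -0.867 and rho = -0.829 (exact permutation p = 0.0181 and 0.0583, adjusted 0.0241 and 0.117), with r = -0.71 without control replicate 2 and exercised replicate 3. The TMM factor, 0.794 to 1.21, correlated at r = 0.904 and rho = 0.771 (exact permutation p = 0.0181 and 0.103, adjusted 0.0241 and 0.137), with r = 0.902 without the same 2 libraries. The part of marrow content, of abundant transcripts or of depth in these levels was not tested.

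Among the other genes, 1305 (9.01%) correlated with the mean profile of the 7 at 0.95 or more over the 6 libraries, and 261 (1.802%) at -0.95 or less. The closest was ENSRNOG00000014156 (r = 0.9998), with 10, 79 and 0 counts in control replicates 1 to 3 and 33, 22 and 184 in exercised replicates 1 to 3. The next, ENSRNOG00000055111 (r = 0.9996), had 85, 690 and 10 counts in the controls and 279, 177 and 1568 in the exercised libraries. In the opposite direction ENSRNOG00000030328 (r = -0.9995) was at 50.4, 36.5 and 68.2 CPM in the controls and 41.4, 43.8 and 31.8 CPM in the exercised libraries, a far narrower range. ENSRNOG00000005043 (r = -0.9966) was at 17.2, 11.8 and 28.8 CPM in the controls and 14.5, 15.6 and 9.48 CPM in the exercised libraries. These genes were selected for the highest and lowest r, so the correlations are descriptions. No symbol is paired with these identifiers in the tables used here.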

How the data were processed

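RNA was measured by sequencing in bone from 6 rats. Per the labels' protocols, total RNA purified on columns went into Illumina libraries. The deposited table holds whole-number counts per Ensembl gene. Its header names FPKM, but FPKM summing to such totals would imply genes of 55.2 to 71.1 nt on average, so the values were treated as counts. The tools named, per the submitters' processing notes, are HISAT2 2.1.0, StringTie, edgeR, fastp 0.19.5 and CASAVA 1.8, in roles not given. The notes name the builds hg38 and mm10, whereas the identifiers are rat; the rat build and annotation used are not stated. Columns were assigned to samples by the library names in the labels. Of the identifiers, 0 matched the RefSeq gene table (47357 genes), so other cell cycle genes and cell type markers planned by symbol were not analysed here. Symbols of the 7 genes come from the list, and without a match no table could check them.

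Counts were filtered with filterByExpr (minimum count 10, minimum total 15), scaled by TMM and tested with edgeR 4.0.16 (R 4.3.3) quasi-likelihood on all 6 libraries, without covariates, with Benjamini-Hochberg adjustment over all genes tested. The SE is the absolute log2 fold difference divided by the root of F. Log2 CPM used a prior count of 2, and DESeq2 1.42.0 and limma 3.58.1 (voom) were alternatives. The edgeR function was checked on simulated counts with less spread between libraries than these data. That check does not show the power of the test here. The permutation p of a correlation was checked on random values. The members, lists and tests were chosen with earlier results of these data known; the named genes were all 7 members and the 2 other genes with the highest and the 2 with the lowest r with their mean profile. Libraries of 1 group differed by more than sampling noise (chi-square per degree of freedom at least 66.2). Each group is described as 3 rats, and p-values reflect the spread among the 6 libraries only. Intervals cover counting error only.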

Additional observations from a re-analysis of the deposited data

How the results depend on the processing

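The number of genes changed was 0 in 14 of 15 alternatives and 1 with DESeq2, and no member was called in any of the 15. The adjusted p of the members was at least 0.537 over 105 alternative fits. The median log2 fold difference of the members, 1.42 with all libraries, ran from 0.06 to 3.45 when 1 library was left out, and was -0.41 without control replicate 3 and exercised replicate 3. Without these 2 libraries the differences were -0.75 in Mki67, -0.55 in Top2a, -0.67 in Ccnb1, -0.26 in Cdk1, -0.41 in Ccna2, -0.20 in Pcna and -0.092 in Plk1. With 1 library left out they ran from -0.18 to 3.45 in Mki67 and from -0.12 to 3.11 in Ccnb1. With the first component as a covariate Ccnb1 was at -0.053 and Pcna at -0.027. These values follow from fewer libraries or from a covariate that correlates with the members. The other scalings, the other tests and no filter kept every sign, with the median at 2.26 by limma voom, Mki67 at 1.11 to 2.28 and Pcna at 0.72 to 0.89.

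The median highest-to-lowest ratio was 13.0 to 94.4 with 1 library left out, and 5.46 without control replicate 3 and exercised replicate 3. It also depended on the scaling, at 139 with library size alone and 91.4 with TMM without the 100 most abundant genes. The median pairwise r stayed at 0.986 to 0.994 with 1 library left out. The log2 ratio of Top2a to Mki67, a comparison chosen after seeing the data, ran from 0.16 to 0.20 with 1 library left out.

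With the replicate number as a block the median log2 fold difference was 1.89, with 0 genes called and 212 at an unadjusted p under 0.05. The labels do not say whether the numbers pair the libraries. Same-numbered libraries deviated from their group means with correlations of 0.31, -0.41 and -0.49. With so few libraries per group, these values cannot decide it. The lowest levels, in control replicate 3, rest on 8 to 61 counts except for Pcna, and limit how finely proportions can be compared there.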
